A study of Mus musculus with 6 samples.

Results

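The let-7 family of microRNAs (miRNAs) was followed in mouse serum across 6 small RNA libraries made with 3 preparation kits, 2 per kit, to see how much of the miRNA content it made up and how its members ranked with each kit. The 9 members were let-7a-5p (MIMAT0000521), let-7b-5p (MIMAT0000522), let-7c-5p (MIMAT0000523), let-7d-5p (MIMAT0000383), let-7e-5p (MIMAT0000524), let-7f-5p (MIMAT0000525), let-7g-5p (MIMAT0000121), let-7i-5p (MIMAT0000122) and miR-98-5p (MIMAT0000545), taken by these miRBase identifiers out of 788 miRNAs with at least 1 read in any library. All 9 had reads in all 6 libraries, as did 209 of the 788 miRNAs. The kits were NEBNext Multiplex Small RNA from New England Biolabs, TruSeq small RNA v2 from Illumina and TailorMix v2 from Seqmatic. Every library came from serum of healthy mice of the strain 129/SVj, male and female and between 2 and 9 months old, which were sedated with tribromoethanol before blood was taken from the heart. The labels name no mutation and no other agent, and the kit was the only labelled difference between the groups. RNA was isolated from serum of individual mice, but which mouse gave which library, with its sex and age, was not given in the sources used here. All libraries were size selected to between 125 and 153 bp. The sample titles number the sera 1 and 2 within every kit. Whether these numbers stand for different mice, and whether the same sera were used with every kit, is not stated. The tests therefore measure the spread between these libraries, which may be technical.

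let-7 was among the first miRNAs to be found, in the nematode, where it times the passage from larval to adult cell fates. A miRNA pairs through its seed, the bases just after its 5′ end, with messenger RNAs and lowers their output, and members that share a seed are thought to share most targets. In mammals let-7 miRNAs are scarce in early embryonic cells, where the protein LIN28 blocks the maturation of their precursors, and abundant in most differentiated tissues, where they hold down growth genes such as those of the RAS family, MYC and HMGA2. Blood cells and many organs release them into the circulation.

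All 9 mature sequences were found by name in RefSeq's records on the mouse build GRCm38.p6. They are shown because the differences between kits described below fall on miRNAs that are nearly the same molecule. The seed, bases 2 to 8 counted from the 5′ end, is in capitals.
let-7a-5p: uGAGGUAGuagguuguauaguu
let-7b-5p: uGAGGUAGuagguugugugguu
let-7c-5p: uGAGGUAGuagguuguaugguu
let-7d-5p: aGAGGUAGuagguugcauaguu
let-7e-5p: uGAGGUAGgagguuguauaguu
let-7f-5p: uGAGGUAGuagauuguauaguu
let-7g-5p: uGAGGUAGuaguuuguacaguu
let-7i-5p: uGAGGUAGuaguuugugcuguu
miR-98-5p: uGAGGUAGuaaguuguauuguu
Every member is 22 bases long, carries the seed GAGGUAG and ends in GUU, and 14 of the 22 positions hold the same base in all 9. The first base is U in 8 members and A in let-7d-5p. Counting from 1 at the 5′ end and giving the base of let-7a-5p first, let-7c-5p differs from let-7a-5p by A19G alone, let-7e-5p by U9G alone and let-7f-5p by G12A alone. let-7b-5p differs from let-7a-5p by A17G and A19G, let-7d-5p by U1A and U16C, let-7g-5p by G12U and U18C, and miR-98-5p by G11A and A19U. The member farthest from let-7a-5p is let-7i-5p, with 4 differences (G12U, A17G, U18C and A19U). Of the 36 pairs of members, 4 differ at 1 base and 10 at 2 bases, and the largest number of differences is 6, between let-7d-5p and let-7i-5p. From the 5′ end, let-7d-5p is told from the others at base 1, let-7e-5p at base 9, miR-98-5p at base 11 and let-7f-5p at base 12. let-7b-5p, let-7g-5p and let-7i-5p need 17 bases, and let-7a-5p and let-7c-5p need 19. The authors mapped reads without mismatches, but the shortest reads they kept had fewer than 17 bases, and how a read that fits several members was counted is not given in the sources used here. The split between let-7a-5p, let-7b-5p and let-7c-5p, and that between let-7g-5p and let-7i-5p, is therefore less certain than their sums. In the same records, 11 of 1679 mature miRNA names carry this seed, the other two being let-7k and miR-1961, whose reads were not analysed here.

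The 9 members come from 12 hairpin genes of GRCm38, 3 members having 2 genes each. On chromosome 13 Mirlet7a-1 (chr13:48538179-48538272), Mirlet7f-1 (chr13:48537829-48537917) and Mirlet7d (chr13:48536012-48536114) lie on the minus strand with 261 and 1714 bases between them, in the long noncoding RNA gene 6720427I07Rik, where at least 1 annotated exon overlaps each. Mirlet7c-2 (chr15:85706603-85706697) and Mirlet7b (chr15:85707319-85707403) lie 621 bases apart on the plus strand of chromosome 15, both overlapping exons of Lncppara. Mirlet7f-2 (chrX:151912346-151912428) and Mir98 (chrX:151913214-151913321) lie 785 bases apart in introns of Huwe1, which encodes a ubiquitin ligase. The second let-7a gene, Mirlet7a-2 (chr9:41536716-41536811), lies in an intron of the noncoding gene 3110039I08Rik, and the second let-7c gene, Mirlet7c-1 (chr16:77599657-77599750), in an intron of Mir99ahg. Mirlet7g (chr9:106178840-106178927) lies in an intron of Wdr82, Mirlet7e (chr17:17830352-17830444) in an intron of Spaca6 and Mirlet7i (chr10:122985640-122985724) in an exon of the pseudogene D630033A02Rik. Reads of let-7a-5p, let-7c-5p and let-7f-5p cannot be assigned to either of their 2 genes, so no level is given per gene.

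With TailorMix the family made up 50.2% and 50.0% of all miRNA reads, against 10.8% and 10.4% with NEBNext and 9.90% and 8.68% with TruSeq. Both TailorMix libraries thus lay far above the other 4, whereas NEBNext and TruSeq lay close together without overlapping. These shares rest on 24267 and 17166 reads counted on the 9 members in the NEBNext pair, 34824 and 24479 in the TruSeq pair and 97034 and 98519 in the TailorMix pair, out of between 165139 and 351758 miRNA reads per library. The 95% Wilson interval was 49.9% to 50.4% for the higher TailorMix library and 8.57% to 8.78% for the lowest library, and such intervals cover counting error only. By kit the mean share was 10.6% ± 0.281 (NEBNext), 9.29% ± 0.864 (TruSeq) and 50.1% ± 0.0840 (TailorMix; SD, n = 2 each). The mean of TailorMix was 4.73 times that of NEBNext and 5.39 times that of TruSeq, and these gaps were many times the SD within each kit. NEBNext and TruSeq differed by a factor of 1.14.

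The denominator decided how NEBNext and TruSeq compared. As a share of annotated reads, which also count tRNA and other small RNA fragments, the family took 0.0924% and 0.101% with NEBNext, 0.300% and 0.260% with TruSeq, against 1.89% and 1.86% with TailorMix. On this scale the family was 2.89 times as abundant with TruSeq as with NEBNext, 19.4 times with TailorMix as with NEBNext and 6.69 times with TailorMix as with TruSeq. Annotated reads lay between 5144833 and 26256012 per library, highest with NEBNext and lowest with TailorMix. Reads of miRNAs outside the family averaged 174285 ± 37211 per NEBNext library, 287266 ± 41958 per TruSeq library and 97405 ± 1373 per TailorMix library (SD, n = 2 each). miR-16-5p, a miRNA abundant in red blood cells that rises in serum with haemolysis, also differed between the kits, with 0.402% and 0.374% of miRNA reads with NEBNext, 3.22% and 2.81% with TruSeq, against 5.14% and 4.89% with TailorMix. As a share of miRNA reads miR-16-5p was lowest with NEBNext and the family was lowest with TruSeq. The paper used miR-16-5p as a miRNA reported to be abundant and steady in mouse serum. It also measured free haemoglobin in all sera by absorbance, but gives no values in the sources used here. The part of haemolysis in these results was not tested.

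**Figure D1:**
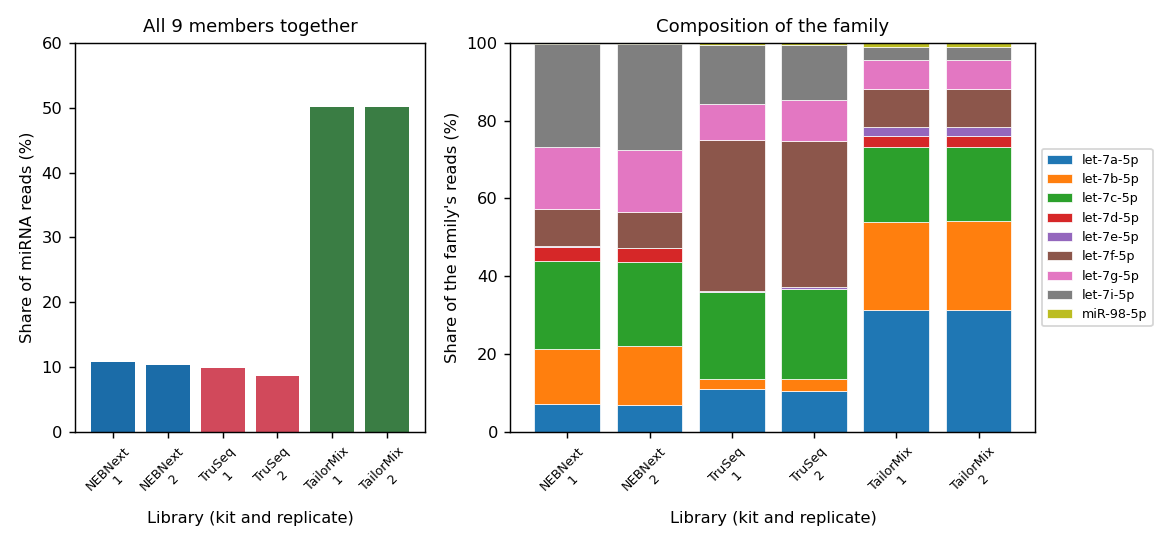
The left panel gives the share of each library's miRNA reads (%, bars from 0) counted on the 9 let-7 family members, and the right panel divides the family's reads of each library among its members (%). The TailorMix bars stand at 50.2% and 50.0% and the other 4 between 8.68% and 10.8%, and the leading segment is let-7i-5p with NEBNext, let-7f-5p with TruSeq and let-7a-5p with TailorMix.

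The 3 members with the largest shares in TailorMix were let-7a-5p, let-7b-5p and let-7c-5p, which differ from each other only at bases 17 and 19. let-7a-5p took 0.779% and 0.730% of miRNA reads with NEBNext, 1.1% and 0.910% with TruSeq, against 15.7% and 15.6% with TailorMix. let-7b-5p took 1.54% and 1.56% with NEBNext, 0.259% and 0.274% with TruSeq, against 11.3% and 11.4% with TailorMix. let-7c-5p was the steadiest member between NEBNext and TruSeq in share of miRNA reads, though not on every scale used below. It took 2.42% and 2.26% with NEBNext, 2.19% and 2.00% with TruSeq, against 9.68% and 9.51% with TailorMix. All 3 were high in both TailorMix libraries, but only let-7b-5p was several times lower with TruSeq than with NEBNext. In mean share, let-7a-5p was 20.8 times as high with TailorMix as with NEBNext, let-7b-5p 7.36 times and let-7c-5p 4.10 times, and against TruSeq the factors were 15.6, 42.7 and 4.57.

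let-7f-5p, which comes from the same clusters as let-7a-1, let-7d and miR-98, was the leading member with TruSeq. It took 1.03% and 0.960% of miRNA reads with NEBNext, 3.83% and 3.26% with TruSeq, against 4.85% and 4.84% with TailorMix. TruSeq was thus closer to TailorMix than to NEBNext for this member. let-7g-5p, whose gene lies in Wdr82, took 1.74% and 1.65% with NEBNext, 0.924% and 0.921% with TruSeq, against 3.77% and 3.69% with TailorMix. let-7i-5p was the only member whose share of miRNA reads was highest with NEBNext, at 2.84% and 2.82%. TailorMix followed with 1.67% and 1.76% and TruSeq with 1.49% and 1.23%. As a share of annotated reads let-7i-5p was instead lowest with NEBNext (0.0243% and 0.0274%), with 0.0451% and 0.0368% for TruSeq and 0.0629% and 0.0653% for TailorMix. In share of miRNA reads the kits' libraries did not overlap for let-7f-5p, let-7g-5p or let-7i-5p. For let-7i-5p TruSeq and TailorMix lay only a factor of 1.26 apart in their means on that scale.

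The remaining 3 members, let-7d-5p, let-7e-5p and miR-98-5p, were the scarcest. let-7d-5p, the member that starts with A, had 903 and 601 reads with NEBNext and 2831 and 2961 with TailorMix, but only 22 and 24 with TruSeq, although miRNA reads were most numerous in the TruSeq libraries. In share of miRNA reads this was 0.402% and 0.364% (NEBNext), 0.00625% and 0.00851% (TruSeq), and 1.46% and 1.5% (TailorMix). The TruSeq shares had 95% Wilson intervals of 0.00413% to 0.00947% and 0.00572% to 0.0127%, far below every other library. The mean share of let-7d-5p with TruSeq was 51.9 times lower than with NEBNext and 201 times lower than with TailorMix. let-7e-5p, whose substitution at base 9 directly follows the seed, was counted 20 and 13 times in the NEBNext pair, 120 and 79 times in the TruSeq pair and 2207 and 2239 times in the TailorMix pair. Its shares were 0.00889% and 0.00787% with NEBNext, against 0.0341% and 0.0280% with TruSeq, and were 1.14% in either TailorMix library, so that NEBNext was 136 times lower than TailorMix in mean share. Thus let-7d-5p was the scarcest member with TruSeq and let-7e-5p with NEBNext. miR-98-5p had 91 and 74 reads with NEBNext, 233 and 128 with TruSeq and 1081 and 986 for the TailorMix pair. Its shares with NEBNext, 0.0405% and 0.0448%, and with TruSeq, 0.0662% and 0.0454%, came within counting error of each other between NEBNext replicate 2 and TruSeq replicate 2. With TailorMix miR-98-5p took 0.559% and 0.501%. All of these counts stood above the 3 reads used as floor, which represent between 0.000853% and 0.00182% of a library's miRNA reads.

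**Figure D2:**
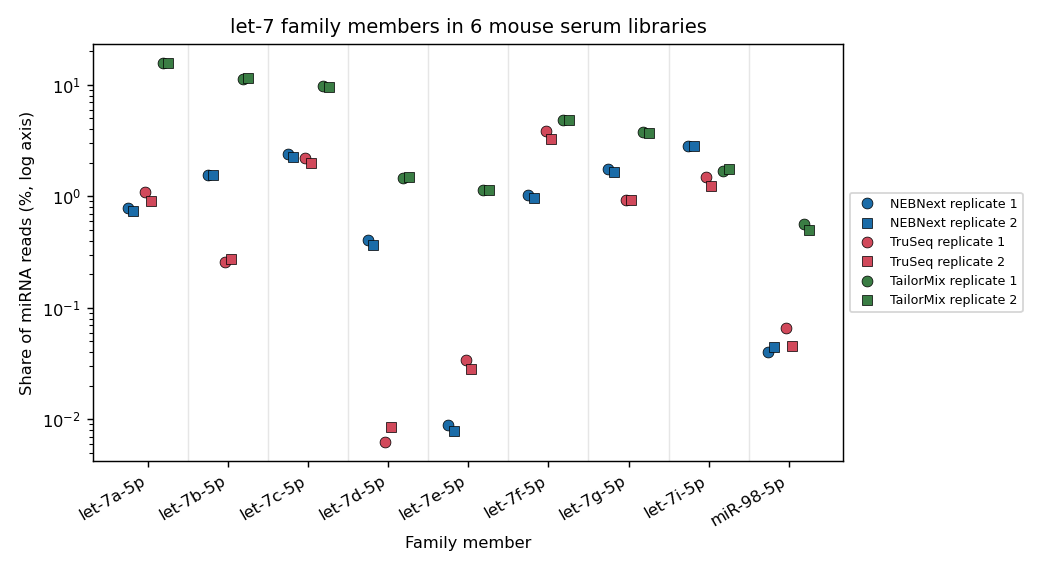
Each point is a member's share of the miRNA reads of a library (%, log axis), with circles for replicate 1 and squares for replicate 2 and a color for each kit. TailorMix is the highest kit for 8 of 9 members, let-7i-5p being highest with NEBNext, and let-7d-5p with TruSeq and let-7e-5p with NEBNext are at most 0.00889%.

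For each of the 9 members the 6 shares were separated by kit, with no overlap between any pair of kits, and the exact permutation test over the 15 groupings of 6 libraries into 3 pairs gave p = 0.0667 for every member (two-sided), the smallest p that this design allows. The 9 tests therefore cannot pass a threshold of 0.05. Separation of this kind was common among miRNAs. From NEBNext to TruSeq, 4 members were higher and 5 lower in both libraries, where 21.9% and 61.7% of the 360 miRNAs tested were. Both TailorMix libraries were above both NEBNext libraries for 8 members (36.1% of all tested) and below them for let-7i-5p (52.8% of all tested). Both TailorMix libraries were above both TruSeq libraries for all 9 members (53.3% of all tested) and below for 0 (30.6% of all tested).

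Ranked among all miRNAs of a library by reads, let-7a-5p, let-7b-5p and let-7c-5p held ranks 1, 2 and 3 in both TailorMix libraries. In the NEBNext libraries let-7a-5p ranked 38 in both, and in the TruSeq libraries it ranked 19 and 23. let-7b-5p was at rank 22 in each NEBNext library and at rank 36 in each TruSeq library. With TailorMix, 5 members stood among the 10 most abundant miRNAs and 8 among the 20 most abundant, whereas with NEBNext and TruSeq at most 1 stood among the 10 and between 3 and 4 among the 20. The most abundant miRNA outside the family, sought in each library, took 8.86% and 8.61% of miRNA reads with NEBNext, 18.4% and 20.1% with TruSeq, against 5.14% and 4.97% with TailorMix. With TailorMix this was miR-16-5p in replicate 1 and another miRNA in replicate 2. No member exceeded the most abundant miRNA outside the family in the NEBNext or TruSeq libraries, and 3 members did in each TailorMix library. let-7e-5p held rank 177 and 182 with NEBNext, 83 in each TruSeq and 20 in each TailorMix library, and let-7d-5p held rank 50 and 51, 129 and 115, and 15 in each TailorMix library.

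Shares of the family's own reads do not depend on how a library is scaled, and here too the kits differed. With NEBNext the order was let-7i-5p (26.7% ± 0.561 of family reads), let-7c-5p (22.1% ± 0.486), let-7g-5p (16.0% ± 0.137), let-7b-5p (14.6% ± 0.503), let-7f-5p (9.37% ± 0.183), let-7a-5p (7.12% ± 0.137), let-7d-5p (3.61% ± 0.156), miR-98-5p (0.403% ± 0.0397) and let-7e-5p (0.0791% ± 0.00473; SD, n = 2 here and below). With TruSeq let-7f-5p led (38.1% ± 0.790), before let-7c-5p (22.6% ± 0.662), let-7i-5p (14.6% ± 0.628), let-7a-5p (10.8% ± 0.447), let-7g-5p (9.97% ± 0.908), let-7b-5p (2.89% ± 0.388), miR-98-5p (0.596% ± 0.103), let-7e-5p (0.334% ± 0.0155) and let-7d-5p (0.0806% ± 0.0247). With TailorMix let-7a-5p led (31.3% ± 0.0221), before let-7b-5p (22.7% ± 0.206), let-7c-5p (19.1% ± 0.207), let-7f-5p (9.68% ± 0.00455), let-7g-5p (7.45% ± 0.0886), let-7i-5p (3.42% ± 0.126), let-7d-5p (2.96% ± 0.0622), let-7e-5p (2.27% ± 0.00127) and miR-98-5p (1.06% ± 0.0801). A different member therefore led with each kit, and let-7c-5p, at rank 2 or 3 with every kit, was the closest to a constant share. Neighbours in these orders were apart in both libraries of the kit, except let-7a-5p and let-7g-5p with TruSeq, which changed places between the 2 libraries.

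For the share of family reads, an exact permutation test gave p = 0.0667, the smallest possible, for 8 members and p = 0.133 for let-7c-5p (two-sided, 9 tests). For let-7c-5p the NEBNext and TruSeq libraries overlapped. Across the 9 members the Spearman correlation of the mean shares was 0.683 for NEBNext with TruSeq, 0.483 for NEBNext with TailorMix and 0.567 for TruSeq with TailorMix, against 0.983 to 1 between the 2 libraries of a kit. The members share their libraries and most of their sequence, and these correlations are given as a description. When the 9 counts were compared between the 2 libraries of a kit, chi-square divided by its degrees of freedom came to 1.46 in the NEBNext pair, 8.76 in the TruSeq pair and 2.10 in the TailorMix pair. The TruSeq pair thus differed most in composition. This was not confined to the family. Over all miRNAs with at least 10 reads over both libraries the value was 2.16 in the NEBNext pair and 1.59 in the TailorMix pair. It was again largest in the TruSeq pair, where it was higher than over the members.

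**Figure D3:**
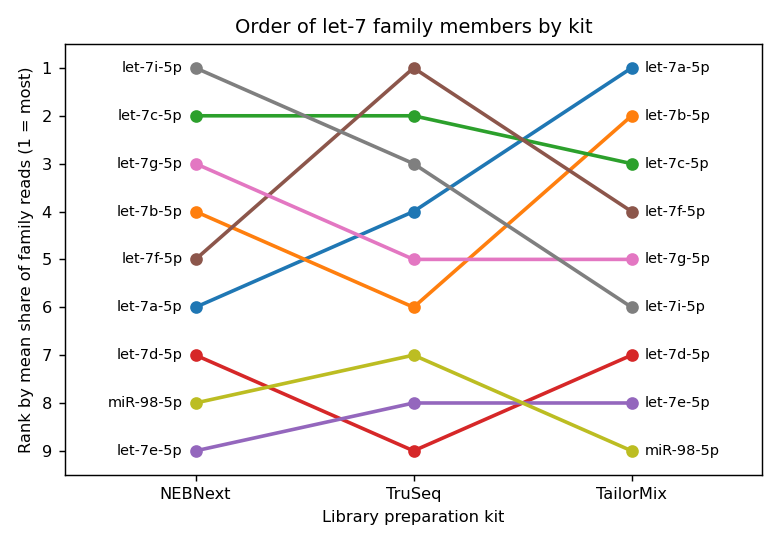
The rank of each member by its mean share of the family's reads (1 is the most abundant) is joined across the 3 kits. The lines cross often, with let-7a-5p going from rank 6 with NEBNext to rank 1 with TailorMix and let-7i-5p from rank 1 to rank 6.

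Ratios between 2 members of the same library compare nearly identical RNAs that went through the same preparation. Of the 36 pairs, 19 kept the same order in all 6 libraries, 16 turned their order between kits with both libraries of each kit alike, and the remaining pair was let-7a-5p and let-7g-5p. The ratio differed between the highest and the lowest kit by a median of 10.8-fold over the 36 pairs, by at least 2-fold in 34 and by at least 10-fold in 19. Between the 2 libraries of a kit the largest fold was 1.21 in the median pair and 1.99 in the widest, which was let-7d-5p over miR-98-5p. In each of the 36 pairs the fold between kits exceeded the fold between replicates. The 36 ratios share their members and are not independent of each other. Pairs of other miRNAs were not compared, so these counts have no background. Most miRNAs differed between kits, as given below, and whether let-7 pairs moved more than other pairs was not tested. The widest ratio was that of let-7e-5p to let-7i-5p, which differed 225-fold between kits.

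The pairs that differ at a single base moved as well. let-7a-5p over let-7c-5p (A19G) was 0.322 and 0.323 with NEBNext, 0.502 and 0.454 with TruSeq, against 1.62 and 1.65 with TailorMix. let-7a-5p over let-7f-5p (G12A) was 0.760 in both NEBNext libraries, 0.288 and 0.279 with TruSeq, against 3.24 and 3.23 with TailorMix, so that the more abundant of these RNAs depended on the kit. let-7b-5p over let-7c-5p (G17A, with the base of let-7b-5p first) was 0.637 and 0.690 with NEBNext, 0.118 and 0.137 with TruSeq, against 1.17 and 1.20 with TailorMix. let-7a-5p over let-7e-5p (U9G) stayed above 1 in all libraries, at 87.6 and 92.8 with NEBNext, 32.3 and 32.5 with TruSeq and 13.8 in both TailorMix libraries. Between the highest and the lowest kit these 4 ratios differed by 5.06, 11.4, 9.34 and 6.55-fold, while the 2 libraries of a kit were within 1.16-fold. let-7g-5p over let-7i-5p, which differ at bases 17 and 19, was 0.612 and 0.587 with NEBNext, 0.621 and 0.750 with TruSeq, against 2.25 and 2.10 with TailorMix. The pairs with let-7d-5p, the only member with another first base, ranged from 9.02-fold between kits (with let-7b-5p) to 194-fold (with let-7e-5p). The part of the first base in this was not tested. let-7d-5p over let-7f-5p, whose genes Mirlet7d and Mirlet7f-1 lie in the same cluster, was 0.392 and 0.379 with NEBNext, 0.00163 and 0.00261 with TruSeq, against 0.302 and 0.310 with TailorMix. Only let-7a-5p over miR-98-5p (1.67-fold between kits) and let-7c-5p over let-7g-5p (1.87-fold) stayed under 2-fold.

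To place the members among all miRNAs, counts of the 360 miRNAs with at least 4 reads in at least 2 libraries, which include all 9 members, were tested between kits with edgeR's quasi-likelihood test, TMM normalization and Benjamini-Hochberg adjustment over all 360. Most miRNAs differed between kits, so the calls of the members are read against the share of all miRNAs called. From NEBNext to TruSeq, 7 of 9 members passed an adjusted p of 0.05, 5 higher and 2 lower, where 68.6% of all miRNAs passed (26.1% higher and 42.5% lower). The largest were let-7d-5p, at a log2 fold change of -4.64 (standard error 0.17, adjusted p = 3.00e-22), let-7e-5p, higher by 2.95 (standard error 0.23, adjusted p = 2.19e-13), and let-7f-5p, higher by 2.91 (standard error 0.11, adjusted p = 1.40e-22). let-7a-5p (1.49), miR-98-5p (1.48) and let-7c-5p (0.92) were also higher and let-7b-5p was lower (-1.47) on this log2 scale. let-7g-5p, at 0.19 (standard error 0.095, adjusted p = 0.0730), and let-7i-5p, at 0.016 (standard error 0.10, adjusted p = 0.916), did not pass. let-7g-5p became a higher call when a TailorMix library was left out: without TailorMix replicate 1 it was 0.29 (adjusted p = 0.00797) and without TailorMix replicate 2 it was 0.39 (adjusted p = 0.00313).

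From NEBNext to TailorMix, 8 of 9 members were higher and 0 lower, where 77.5% of all miRNAs passed (39.2% higher and 38.3% lower). DESeq2, run on the same counts, also called 0 members lower, and at an unadjusted p of 0.05 edgeR called 0 lower, since let-7i-5p, at -0.070 with an unadjusted p of 0.509, was the only member under 0. The share of all miRNAs called lower was not taken for DESeq2 or for the unadjusted p, so these counts have no background. let-7e-5p stood at 7.71 on the log2 scale (standard error 0.19, adjusted p = 1.48e-27), at rank 10 of 360 by size of the change, followed by let-7a-5p with 5.03 (standard error 0.11, adjusted p = 3.51e-28) and miR-98-5p with 4.29 (standard error 0.17, adjusted p = 3.52e-21). let-7b-5p (3.53), let-7f-5p (2.94), let-7c-5p (2.69), let-7d-5p (2.6) and let-7g-5p (1.79) followed. let-7i-5p did not pass (standard error 0.10, adjusted p = 0.539), but became a lower call without TruSeq replicate 1 (-0.26, adjusted p = 0.0273) or TruSeq replicate 2 (-0.29, adjusted p = 1.50e-05).

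From TruSeq to TailorMix, 7 of 9 members were higher and 0 lower, where 70.6% of all miRNAs passed (41.7% higher and 28.9% lower). The member that moved most was let-7d-5p, at 7.25 (standard error 0.17, adjusted p = 2.85e-28), ahead of let-7b-5p with 5.0 (standard error 0.10, adjusted p = 8.18e-30), let-7e-5p with 4.76 (standard error 0.15, adjusted p = 7.39e-25) and let-7a-5p with 3.54 (standard error 0.11, adjusted p = 4.55e-25). miR-98-5p (2.81), let-7c-5p (1.77) and let-7g-5p (1.60) were also higher. let-7f-5p, at 0.031 (standard error 0.098, adjusted p = 0.785), and let-7i-5p, at -0.086 (standard error 0.11, adjusted p = 0.470), did not pass, and neither DESeq2 nor an unadjusted p of 0.05 in edgeR (0.419 for let-7i-5p) gave a lower call. Here too the share of all miRNAs called lower in those settings was not taken. Without TruSeq replicate 2 both became lower calls, let-7f-5p at -0.21 (adjusted p = 0.00662) and let-7i-5p at -0.35 (adjusted p = 2.47e-05).

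The log2 fold changes near 0 depended on the scaling. TMM takes most miRNAs as unchanged, whereas most of these miRNAs differed between kits, and its factors ran from 0.685 in TruSeq replicate 1 to 1.51 in NEBNext replicate 2. With total miRNA reads as library size, the scale of the shares given above, the median log2 fold change of all 360 miRNAs moved from -0.52 to -1.48 for TruSeq against NEBNext, from -0.24 to -0.88 for TailorMix against NEBNext and from 0.50 to 0.91 for TailorMix against TruSeq. On that scale 4 members were higher and 4 lower with TruSeq than with NEBNext, 8 higher and 1 lower with TailorMix than with NEBNext, and 9 higher with TailorMix than with TruSeq. Among all miRNAs the calls moved from 94 higher and 153 lower to 61 and 191 in the first comparison and from 141 and 138 to 108 and 172 in the second, and from 150 and 104 to 175 and 89 in the third. let-7i-5p went to -1.06 in the first comparison (adjusted p = 1.64e-28), -0.72 in the second (adjusted p = 2.23e-14) and 0.34 in the third (adjusted p = 4.74e-04), and let-7g-5p to -0.88 in the first (adjusted p = 3.85e-20). Measured from the median of all miRNAs, the members hardly depended on the scaling. A change of library size moves all miRNAs by nearly the same amount, so this likeness was fixed in advance and is no sign of robustness. With either scaling 7 members lay above that median from NEBNext to TruSeq, the exceptions being let-7b-5p and let-7d-5p, 9 from NEBNext to TailorMix, and 7 from TruSeq to TailorMix, the exceptions being let-7f-5p and let-7i-5p. let-7i-5p lay 0.54 above it with TMM and 0.42 with total reads in the first comparison, and 0.16 above it with both in the second. Within the family the log2 fold changes spanned 7.59, 7.78 and 7.33 in the 3 comparisons, and their SD over the members (2.36, 2.18 and 2.43) was below that over all 360 miRNAs (3.35, 3.43 and 3.83). The 360 include miRNAs with few reads, and no set of miRNAs as abundant as the members was compared. The 3 comparisons share libraries and are not independent of each other.

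**Figure D4:**
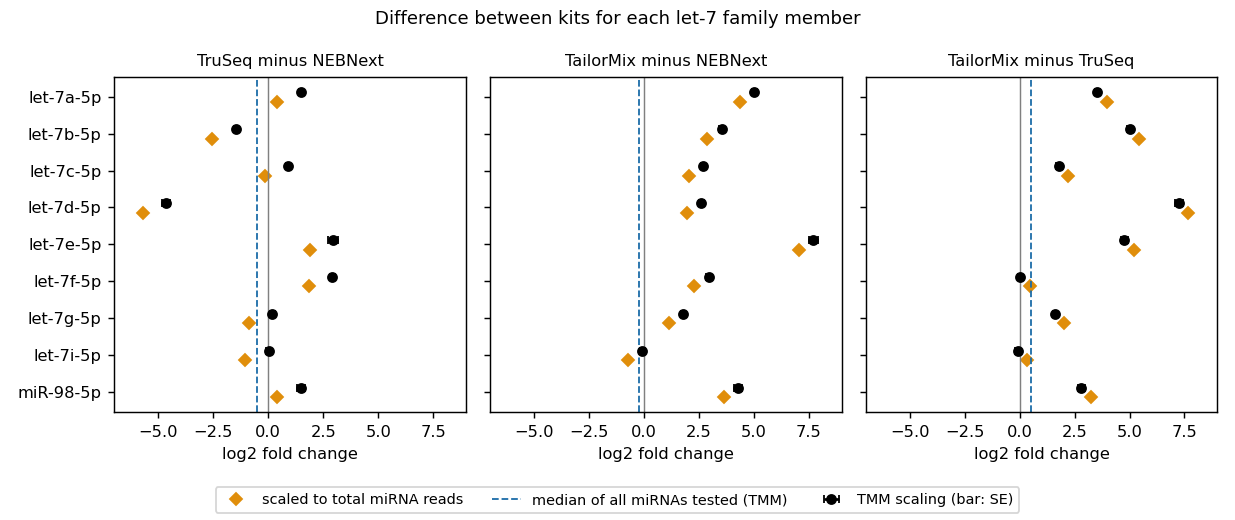
For each member and comparison of kits, black points give the log2 fold change of edgeR with TMM scaling and its standard error (most bars are smaller than the point), orange diamonds the same with total miRNA reads as library size, and the dashed line the median of all 360 miRNAs tested with TMM. The members scatter from -4.64 to 2.95 between NEBNext and TruSeq, and from -0.070 to 7.71 between NEBNext and TailorMix.

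Among 48 miRNAs outside the family with at least 100 reads in every library, the profile most like that of the family total was sought by the Euclidean distance between log2 shares of miRNA reads over the 6 libraries, each centred on its own mean. The nearest was MIMAT0000665, at a distance of 0.962, with 0.0947% and 0.0860% of miRNA reads with NEBNext, 0.157% and 0.143% with TruSeq, against 0.517% and 0.491% with TailorMix. The next was MIMAT0000565, at 1.27, and the median over the 48 was 4.41. Of the members themselves let-7c-5p was closest to the family total, at 0.265, and let-7d-5p farthest, at 6.23. Both miRNAs given above lay nearer to the family total than 7 of its 9 members. They were picked as the nearest of 48, so that comparison was tilted in advance and is no result about the members. These distances describe 6 libraries of 3 kits, and the files give identifiers without names.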

How the data were processed

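Small RNA sequencing of serum from healthy 129/SVj mice gave 6 libraries, grouped by the kit named in the sample labels. The deposited values are raw read counts per miRBase identifier, and per sequence for other small RNAs. Per the labels and the paper, the authors trimmed adaptors (Cutadapt 1.8.1), filtered on length and quality, mapped to GRCm38 without mismatches (Bowtie 1.1.2) and annotated reads by position against miRBase, UCSC and Ensembl. Nothing was normalized, and reads carry no molecular identifiers. A miRNA that a library does not list was taken as 0.

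Shares, exact permutation tests of the between-kit F ratio and figures were made with Python 3.11.15, pandas 2.3.3, numpy 2.4.6, scipy 1.17.1 and matplotlib 3.10.9. edgeR 4.0.16 (R 4.3.3; glmQLFit and glmQLFTest, TMM, kit as the only term, 6 libraries) was fitted to all miRNAs with at least 4 reads in at least 2 libraries, with DESeq2 1.42.0 as an alternative. Standard errors follow from the fold change and its F. On simulated counts for TruSeq against NEBNext (788 miRNAs, 200 changed 4-fold), 95 changed miRNAs passed the filter, 76 were called with 0 in the wrong direction, and 4 of 259 unchanged ones were called. In the simulation only a minority changed, up or down at random, with the same spread for every miRNA. Most miRNAs differed between kits in the data, so these rates may not hold there. Sequences and hairpin positions are from RefSeq (GRCm38.p6) and host genes from GENCODE.

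The named miRNAs were all 9 members, miR-16-5p and the nearest profiles outside the family. The members and lists were chosen with earlier results of these data known, so no p is given for sums over them. Lists of 3p arms, of miRNAs clustered with let-7 and of blood and liver markers were planned by name, but no table used here pairs names with identifiers, and apart from miR-16-5p, whose identifier the paper gives, they were not analysed here.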

Additional observations from a re-analysis of the deposited data

How the results depend on the processing

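The log2 fold changes of the 9 members in 3 comparisons gave 27 values, of which 21 kept their direction and their side of the threshold under all 13 alternatives. The 6 others belonged to let-7i-5p (all 3 comparisons), let-7c-5p and let-7g-5p from NEBNext to TruSeq and let-7f-5p from TruSeq to TailorMix. With total miRNA reads as library size the sign turned for the family total from NEBNext to TruSeq (from 0.84 to -0.19), for let-7c-5p (-0.16), let-7g-5p (-0.88) and let-7i-5p (-1.06) in the same comparison and for let-7i-5p from TruSeq to TailorMix (0.34), and 4 members in place of 2 were lower from NEBNext to TruSeq and 1 in place of 0 from NEBNext to TailorMix. These turns follow from the scaling alone, since all members moved together. From TruSeq to TailorMix let-7f-5p was -0.036 with DESeq2, -0.16 without a filter, -0.056 with at least 10 counts and -0.29 with TMM factors from miRNAs outside the family, an alternative chosen after seeing the data. let-7i-5p from NEBNext to TruSeq was -0.028 without a filter and -0.025 with those factors. Without a filter the family total from NEBNext to TruSeq was 0.73, with a standard error of 0.31 against 0.16 in the main fit, and the cause was not tested.

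Each library was also left out in turn. Over these fits let-7g-5p ranged from -0.061 to 0.39 and let-7i-5p from -0.27 to 0.21 from NEBNext to TruSeq, let-7i-5p from -0.29 to 0.24 from NEBNext to TailorMix, and let-7i-5p from -0.35 to 0.12 and let-7f-5p from -0.21 to 0.20 from TruSeq to TailorMix. The family's share of miRNA reads ranged from 10.4% to 10.8% with NEBNext, 8.68% to 9.90% with TruSeq and 50.0% to 50.2% with TailorMix.

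As a share of annotated reads the means were 0.0968%, 0.280% and 1.87%, and of miRNA reads without the most abundant miRNA outside the family 11.6%, 11.5% and 52.8% (NEBNext, TruSeq, TailorMix). Without miR-98-5p TailorMix stood at 49.6%. The number of pairs of members in the same order in all libraries remained 19 when any library was left out.

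Sera are numbered 1 and 2 within every kit. With the replicate number as a block the family totals were 0.84, 2.89 and 2.05, and the counts of members called were again 5 and 2, 8 and 0, and 7 and 0. The share of all miRNAs called with the block was not taken, so these counts are set only against the fit without it. The difference between replicates 1 and 2 over 102 miRNAs was correlated at 0.000826 for NEBNext with TruSeq. The correlation was -0.0595 for NEBNext with TailorMix and 0.126 for TruSeq with TailorMix. Low correlations cannot decide whether the same sera were used with every kit, since counting error may hide differences between sera. Over all miRNAs, chi-square between replicates divided by its degrees of freedom was only 2.16 with NEBNext and 1.59 with TailorMix. The main fit did not pair the libraries, and whether the numbers pair them was left undecided. Counting precision was lowest for let-7d-5p with TruSeq and let-7e-5p with NEBNext, whose shares rest on between 13 and 24 reads.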
